A study of Sus scrofa with 13 samples.

Results

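The genes described here encode the nuclear part of the oxidative phosphorylation system of porcine loin muscle. They were chosen by symbol, with earlier results of these data known. The rule took the genes counted in both breeds whose symbol starts with NDUF, SDH, UQCR or ATP5. It also took symbols of COX followed by a digit from 4 to 8 and a letter or nothing. Of 25322 genes counted, 80 met this rule, 70 by the symbol in the authors' tables and 10 only by the reference name of the Ensembl identifier. Complex I held 40 of them (6 core subunits, 28 accessory subunits and 6 assembly factors) and complex II held 8 (4 subunits and 4 assembly factors). Complex III held 6 subunits, complex IV held 14 genes (12 subunits, the assembly factor COX7A2L and the subunit paralog NDUFA4L2), and complex V held 12 (10 subunits and the regulators ATPIF1 and ATP5S). All 80 passed the filter on low counts in every comparison.

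Oxidative phosphorylation takes place in the inner mitochondrial membrane. Complexes I and II pass electrons from NADH and succinate to ubiquinone, complex III passes them on to cytochrome c, and complex IV reduces oxygen. The proton gradient built by complexes I, III and IV drives ATP synthesis by complex V. Every complex except complex II also contains subunits translated from mitochondrial DNA, so nuclear and mitochondrial transcripts have to be combined into the same enzymes. Muscle fibres differ in their mitochondrial content, and slow fibres are the more oxidative ones.

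Samples of longissimus lumborum, the main muscle of the loin, came from 13 female pigs aged 6 month, from the sire breeds Hampshire and Pietrain, kept in the same housing and on the same feed. The groups were 3 Hampshire pigs with high loin weight (pigs 8, 9 and 10), 3 Hampshire pigs with low loin weight (pigs 1, 2 and 3), 4 Pietrain pigs with high loin weight (pigs 1, 2, 6 and 7) and 3 Pietrain pigs with low loin weight (pigs 3, 5 and 8). The study asked which transcripts go with muscularity within each breed, so the groups differ in a carcass trait and in no treatment, and a pig number that occurs in more than 1 group does not mark the same animal. Whole pieces of muscle were sequenced, so fewer cells of a type and less RNA per cell cannot be told apart in any value below.

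Total counts ranged from 11312755 to 20134612 per pig, and the members with the fewest counts were NDUFA6 (16 to 159 counts per pig), NDUFA4L2 (22 to 170) and SDHAF4 (46 to 169). Levels are given as CPM, counts scaled to the library size after TMM normalization over the 13 pigs, and levels of different genes were not compared with each other. The labelled tissue was checked with 7 skeletal muscle markers, none of which was at 0 in all pigs and which summed to between 58985 and 209918 CPM per pig. Of the pigs, Pietrain low loin weight pig 5 stood apart in slow fibre markers, whose 6 genes lay on average at -5.74 log2 CPM from their means over the 13 pigs, while the 80 members averaged -0.09 in the same pig. By their summed level this pig did not stand apart, at 2943 CPM against 2146 and 3618 CPM in Pietrain high loin weight pigs 6 and 1. For the difference between the breeds and the breed contrast at low loin weight, counts of calls are given with and without this pig. For the contrast at high loin weight only a range over fits that left out 1 pig is given.

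Members were higher in Hampshire pigs with high loin weight. A gene counted as a DEG when it changed at least 1.2-fold with an adjusted p under 0.05, from the quasi-likelihood test of edgeR and Benjamini-Hochberg adjustment over 12228 genes. By this rule 34 of the 80 members were higher in the high loin weight pigs, where 12% of all genes tested were, and 2 were lower, where 14.6% of all genes were. Together these 36 members stand against 26.6% of all genes called in either direction, and 56 members had an unadjusted p under 0.05 (41.2% of all genes). The median log2 fold change was 0.57 over the members and 0.03 over all genes, and 73 of the 80 members had a positive value, against 51.6% of all genes. The 34 higher members had log2 fold changes from 0.55 to 1.28, which are folds of 1.46 to 2.43, with SE from 0.15 to 0.26. In 48 members every high loin weight pig lay above every low loin weight pig (22.4% of all genes) and in 4 every one lay below (23.5%). The number of members called depended on single pigs. Leaving out pig 3 or pig 2 of the low loin weight group brought it from 36 down to 7 and 17, and leaving out pig 9 of the high group brought it to 15. Each such fit also had 1 pig fewer to test with. The share of all genes called in these fits is not given, so the loss is not shown to be particular to the members. Over the 6 fits the median log2 fold change of the members ran from 0.45 to 0.65.

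**Figure D1:**
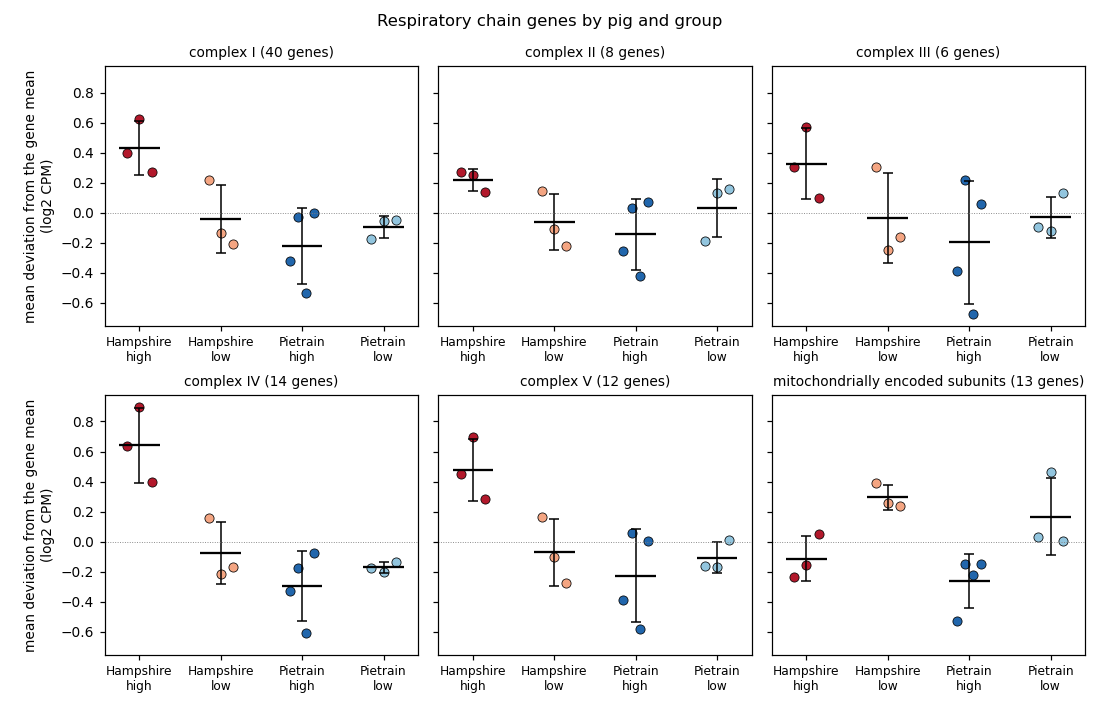
Mean deviation of the members of each complex, and of the 13 mitochondrially encoded subunits, from each gene's mean over the 13 pigs (y axis, log2 CPM) by group (x axis). Each point is 1 pig, the thick line is the group mean and the bar its SD. In complexes I, IV and V the 3 Hampshire pigs with high loin weight lie above the other 3 groups, whereas for the mitochondrially encoded subunits they lie below the Hampshire pigs with low loin weight.

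The Hampshire pigs of a group ranked alike in most members. Among the Hampshire pigs with high loin weight, pig 9 had the highest level in 66 of the 80 members and pig 10 the lowest in 65. Among those with low loin weight, pig 1 had the highest level in 70. In Pietrain, high loin weight pig 6 was the lowest of its group in 52 members, while pigs 2 and 7 were the highest in 35 and 36. No Pietrain low loin weight pig was the highest in more than 33 members, and pig 3 was the lowest in 45. Averaged over all members, the deviation from the gene mean was 0.43, 0.64 and 0.27 log2 CPM in Hampshire high loin weight pigs 8, 9 and 10. It was 0.20, -0.15 and -0.21 in Hampshire low loin weight pigs 1, 2 and 3. The groups did not overlap, but the gap between the lowest high and the highest low loin weight pig was smaller than the range within either group.

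In complex I, 16 of 40 members were higher and 2 were lower in Hampshire, with a median log2 fold change of 0.56. The accessory subunits, which surround the catalytic core, were all positive, and 13 of 28 were called, all of them higher (median 0.60). Of the 6 core subunits only NDUFS7 and NDUFV1 were called, both higher (median of the 6, 0.36). NDUFS7 (ENSSSCG00000024144; Sscrofa10.2, chromosome 2, 77972668 to 77979308) holds the last iron-sulphur cluster before ubiquinone. It stood at 293, 404 and 267 CPM in the high loin weight pigs and at 156, 149 and 114 CPM in the low loin weight pigs. All 3 high pigs lay above all 3 low pigs, and the log2 fold change was 1.19 ± 0.21 (SE, edgeR adjusted p = 0.00684). NDUFV1, the NADH-binding subunit, stood between 198 and 202 CPM in the high loin weight pigs, against 126, 132 and 113 CPM. Its groups were narrow and did not overlap (log2 fold change 0.69 ± 0.15, edgeR adjusted p = 0.0127).

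NDUFS1, the largest iron-sulphur subunit of the NADH arm, went the other way without being called. Its levels were 218, 182 and 188 CPM in the high and 275, 245 and 231 CPM in the low loin weight pigs of Hampshire. Here the high group lay wholly below the low group, but the log2 fold change of -0.36 ± 0.16 did not pass the test (edgeR adjusted p = 0.125). Among the accessory subunits, NDUFV3 of the NADH arm stood at 48.5, 57.1 and 45.7 CPM against 27.5, 30.2 and 24.9 CPM. The groups did not overlap and NDUFV3 rose by 0.87 ± 0.16 log2 (edgeR adjusted p = 0.00719). NDUFB11, an accessory subunit of the membrane arm, rose by 1.03 ± 0.20 log2 (edgeR adjusted p = 0.00947).

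The 6 complex I assembly factors did not share a direction in Hampshire (median log2 fold change -0.19). NDUFAF1, which acts in building the membrane arm, had 7.63, 4.27 and 6.20 CPM in the high and 15.1, 10.6 and 8.90 CPM in the low loin weight pigs. NDUFAF7, a methyltransferase that acts in complex I assembly, had 4.77, 4.18 and 3.58 CPM against 10.7, 6.56 and 7.01 CPM. These were the only members called lower, and in both the groups did not overlap. Their log2 fold changes were -0.93 ± 0.28 (edgeR adjusted p = 0.0394) and -0.96 ± 0.26 (edgeR adjusted p = 0.0291). NDUFAF1 lost its call in 5 and NDUFAF7 in 4 of the 6 fits that left out 1 pig, with log2 fold changes that stayed between -1.16 and -0.73 and between -1.10 and -0.74. NDUFAF3, an early assembly factor, rose by 0.86 ± 0.23 log2 (edgeR adjusted p = 0.0242). NDUFAF6 had a log2 fold change of -0.60 ± 0.26, which did not pass (edgeR adjusted p = 0.116).

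Complexes II and III had 2 higher members each and none lower. In complex II, the only complex made of nuclear subunits alone, these were the iron-sulphur subunit SDHB and SDHAF1, which helps SDHB to receive its iron-sulphur clusters. SDHB (chromosome 6, 69990843 to 70021369) stood at 335, 346 and 281 CPM in the high and 242, 218 and 196 CPM in the low loin weight pigs. The groups did not overlap, and the log2 fold change was 0.55 ± 0.17 (edgeR adjusted p = 0.0411). SDHB lost its call in all 6 fits that left out 1 pig, with log2 fold changes from 0.46 to 0.63. SDHAF1 rose by 0.74 ± 0.22 log2 (edgeR adjusted p = 0.0383). The flavoprotein SDHA, which oxidises succinate, stood at 221, 215 and 259 CPM against 229.9, 225 and 195 CPM. Its groups overlapped, with a log2 fold change of 0.09 ± 0.17 (edgeR adjusted p = 0.708). The median over the 8 members was 0.23.

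In complex III the 2 called members, UQCR10 and UQCR11, are both small subunits without redox centres. UQCR10 had 226, 335 and 211 CPM in the high and 158, 123 and 123 CPM in the low loin weight pigs, and UQCR11 had 257, 276 and 241 CPM against 178, 99.9 and 112 CPM. Neither overlapped between the groups. UQCR10 rose by 0.93 ± 0.22 log2 (edgeR adjusted p = 0.0171) and UQCR11 by 0.98 ± 0.23 (edgeR adjusted p = 0.0179). The core protein UQCRC1 had a log2 fold change of 0.28 ± 0.18 (edgeR adjusted p = 0.270) and the Rieske iron-sulphur protein UQCRFS1, which takes electrons from ubiquinol, 0.07 ± 0.17 (edgeR adjusted p = 0.778). Over the 6 subunits the log2 fold changes ran from -0.49 to 0.98.

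Complex IV, cytochrome c oxidase, had the highest median of the 5 complexes in Hampshire (0.77), with 10 of its 14 members higher and none lower. All 12 subunits were positive and 9 were called. COX4I1 (chromosome 6, 3453458 to 3459813), the largest nuclear subunit, stood at 645, 803 and 598 CPM in the high and 357, 344 and 277 CPM in the low loin weight pigs. The 3 high pigs were all above the low ones, and COX4I1 rose by 1.06 ± 0.19 log2 (edgeR adjusted p = 0.0069). COX8A, a small membrane subunit, had 50.7, 77.2 and 59.1 CPM against 31.7, 29.2 and 27.7 CPM. Its groups also stood apart, with a log2 fold change of 1.07 ± 0.19 (edgeR adjusted p = 0.00647). COX5A, which binds to the matrix side of the enzyme, missed the threshold (0.55 ± 0.18, edgeR adjusted p = 0.0511), although its groups did not overlap. The assembly factor COX7A2L, which takes part in joining complexes III and IV, was among the 10 higher members.

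Several complex IV subunits exist as a muscle isoform and a general isoform. COX6A2, the heart and skeletal muscle isoform, had 502, 784 and 478 CPM in the high and 312, 218 and 200.3 CPM in the low loin weight pigs of Hampshire. COX6A1, the general isoform, had 31.8, 41.5 and 28.3 CPM against 17.4, 14.5 and 17.7 CPM. Neither isoform overlapped between the groups. COX6A2 rose by 1.26 ± 0.26 log2 (edgeR adjusted p = 0.0105) and COX6A1 by 1.03 ± 0.19 (edgeR adjusted p = 0.00747), and the ratio of their CPM overlapped, at 15.8 to 18.9 in the high and 11.3 to 18.0 in the low loin weight pigs.

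COX7A1, the muscle isoform of another small subunit, had 359, 397 and 239 CPM against 195, 156 and 136 CPM, and rose by 1.02 ± 0.23 log2 (edgeR adjusted p = 0.0143). Its general counterpart COX7A2 had overlapping groups and a log2 fold change of 0.58 ± 0.22 (edgeR adjusted p = 0.0821). The COX7A1 to COX7A2 ratio of CPM was 5.77, 5.32 and 4.59 in the high and 3.58, 4.23 and 3.92 in the low loin weight pigs, so the groups did not overlap. In Pietrain it ran from 3.33 to 4.62 in the high and from 3.06 to 3.71 in the low loin weight pigs, which overlapped. Reads of such close copies can be split between them by the counting, so the isoform values are less certain than the others.

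NDUFA4, first counted among complex I subunits and now placed in complex IV, had 655, 725 and 516 CPM in the high and 436, 352 and 296 CPM in the low loin weight pigs of Hampshire. It rose by 0.80 ± 0.21 log2 (edgeR adjusted p = 0.0245), with no overlap. NDUFA4L2, its paralog known as a hypoxia response gene, had only 3.34, 3.64 and 1.47 CPM against 5.51, 3.74 and 7.64 CPM. It was the lowest of the 80 log2 fold changes at -1.01 ± 0.39 and did not pass (edgeR adjusted p = 0.083).

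In complex V, ATP synthase, 4 of 12 members were higher and none was lower (median 0.53). ATP5I (ENSSSCG00000023903; chromosome 8, 149901 to 151754), the membrane subunit e that takes part in holding ATP synthase dimers together, had the largest log2 fold change and the smallest p of the 80 members. It stood at 164, 199 and 146 CPM in the high and 79.7, 66.1 and 63.2 CPM in the low loin weight pigs. The groups were far apart, and ATP5I rose by 1.28 ± 0.18 log2 (edgeR adjusted p = 0.00332). The catalytic head did not follow. ATP5B, the beta subunit, had 1687, 2314 and 1826 CPM against 1924, 1711 and 1379 CPM, and ATP5A1, the alpha subunit, had 1043, 1337 and 1255 CPM against 1269, 1234 and 899 CPM. Both overlapped between the groups, with log2 fold changes of 0.21 ± 0.21 (edgeR adjusted p = 0.483) and 0.09 ± 0.21 (edgeR adjusted p = 0.771).

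The membrane ring of ATP synthase is built of subunit c, which several genes encode as the same mature protein. ATP5G1 had 424, 530.4 and 349.7 CPM in the high and 264, 245 and 187 CPM in the low loin weight pigs and rose by 0.90 ± 0.21 log2 (edgeR adjusted p = 0.0172). ATP5G3 had 375, 496 and 362 CPM against 285, 300.3 and 212 CPM, with a log2 fold change of 0.62 ± 0.20 (edgeR adjusted p = 0.0509). Neither gene overlapped between the groups. Their ratio was 0.965 to 1.13 in the high and 0.816 to 0.927 in the low loin weight pigs. In Pietrain the ratio overlapped, at 0.461 to 0.955 in the high and 0.383 to 0.704 in the low loin weight pigs.

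**Figure D2:**
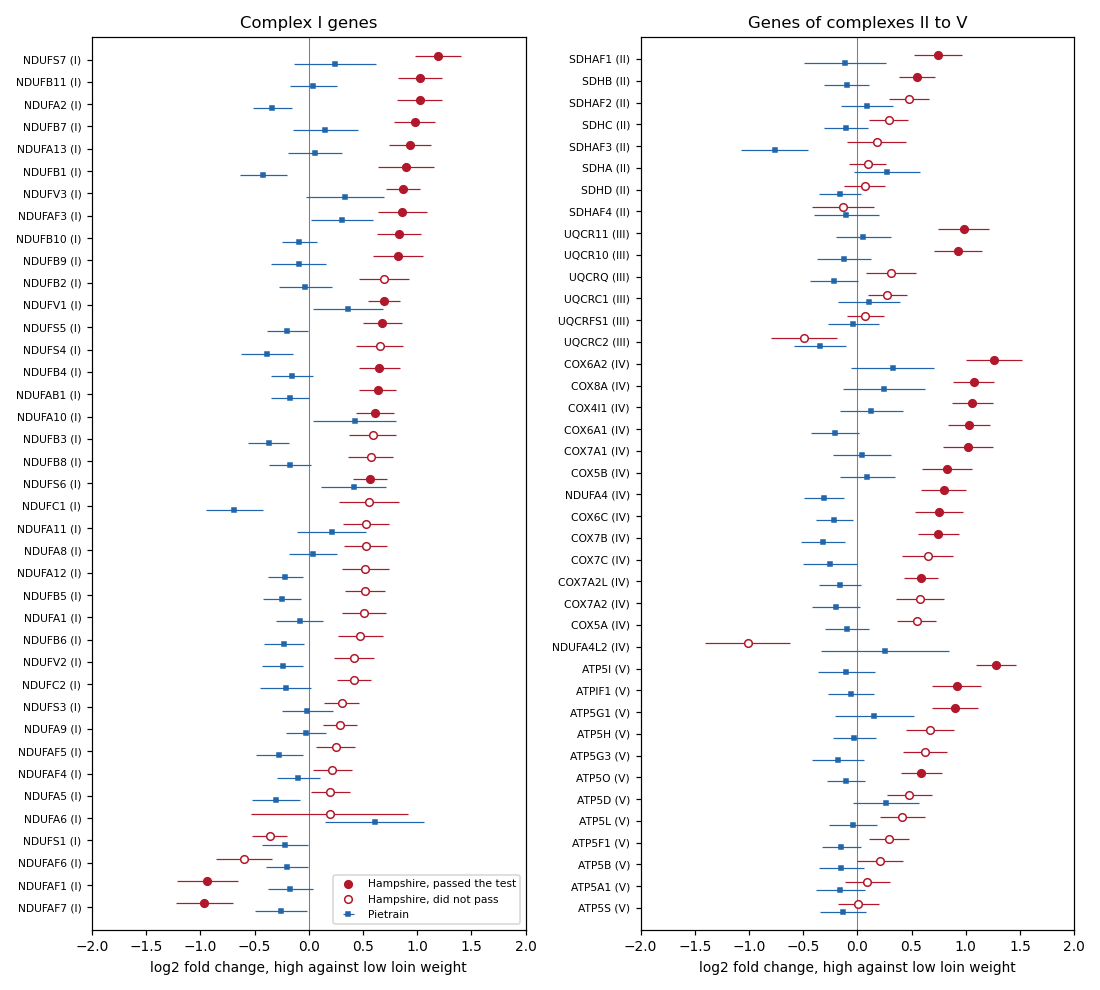
Log2 fold change of each member except 1 not reported by name, high against low loin weight (x axis), in Hampshire (red circles) and Pietrain (blue squares), ordered by the Hampshire value within each complex; bars are SE. Filled circles passed the test in Hampshire, 34 above 0 and 2 below, and no Pietrain value passed.

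The subunits that mitochondrial DNA encodes did not move with the nuclear ones in Hampshire. Of 13 such genes, none was higher (12% of all genes) and 3 were lower (14.6%), with a median log2 fold change of -0.27. The 3 were ND4L (-1.49 ± 0.20, edgeR adjusted p = 0.00255) and ND5 (-0.85 ± 0.22, edgeR adjusted p = 0.0249) of complex I and ATP8 (-0.92 ± 0.19, edgeR adjusted p = 0.0108) of complex V. ND4L and ATP8 overlap their neighbours on the mitochondrial genome, so their counts are less certain. The 13 genes summed to between 142980 and 176399 CPM in the high and between 181108 and 221865 CPM in the low loin weight pigs. Over the same pigs, the nuclear members summed to between 17065 and 22248 CPM against 11627 to 15689 CPM. The sums of the 2 genomes' genes did not overlap between the groups and went in opposite directions. In Pietrain the mitochondrially encoded sum did not overlap either, at 111127 to 152137 CPM in the high and 153409 to 197714 CPM in the low loin weight pigs, although none of the 13 genes passed the test there (edgeR).

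Genes of the same pathway outside the name rule were counted as well. Of 24 electron carriers and assembly factors tested in Hampshire, 8 were higher (12% of all genes) and none was lower (14.6%), with a median log2 fold change of 0.50. The 8 were led by ETFB, a subunit of the electron transfer flavoprotein, at 1.22 ± 0.19 (edgeR adjusted p = 0.00434), by UQCC3, a complex III assembly factor, at 0.85 ± 0.18 (edgeR adjusted p = 0.0130), and by the copper chaperone COX17 at 0.75 ± 0.19 (edgeR adjusted p = 0.0202). The citric acid cycle, which supplies electrons to the chain, had 2 genes higher and 2 lower of 17, with a median of -0.09, a share near that of all genes (12% and 14.6%). Of these, IDH2 and IDH3G, both isocitrate dehydrogenase genes, rose by 0.71 ± 0.18 log2 (edgeR adjusted p = 0.0218) and 0.67 ± 0.18 (edgeR adjusted p = 0.0257). PDHA1 of pyruvate dehydrogenase fell by 0.89 ± 0.19 on the log2 scale (edgeR adjusted p = 0.0119).

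Known regulators of mitochondrial biogenesis showed 4 genes lower (14.6% of all genes) and none higher (12%) of 14 tested in Hampshire. PPARGC1A, a coactivator of oxidative genes, had a log2 fold change of -1.74 ± 0.38 (edgeR adjusted p = 0.0131). The nuclear receptors ESRRG and PPARA had -2.42 ± 0.55 (edgeR adjusted p = 0.0146) and -1.83 ± 0.43 (edgeR adjusted p = 0.0167). In Pietrain none of the genes of these 3 lists passed the test.

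Slow fibre markers were higher in the same Hampshire group as the members, and markers of other cells varied. Within the groups the pigs did not rank alike. By average deviation, low loin weight pig 1 was highest of its group in the members (0.20 log2 CPM) and lowest in slow fibre markers (-0.25). Of the high loin weight pigs, pig 9 was highest in the members (0.64) and pig 8 in slow fibre markers (1.97), while pig 10 was lowest in both. Of 6 slow fibre markers, 5 were higher, led by the slow troponins TNNC1 (2.06 ± 0.27, edgeR adjusted p = 0.00255), TNNI1 (2.22 ± 0.33, edgeR adjusted p = 0.00372) and TNNT1 (2.13 ± 0.32, edgeR adjusted p = 0.00376). The 6 genes summed to between 12887 and 20076 CPM in the high and between 5515 and 8823 CPM in the low loin weight pigs. Of 9 fast fibre markers, none was higher and MYH1 was lower. Where 12% of all genes were higher, higher genes numbered 3 of 7 for fibroblasts, 3 of 5 for adipocytes (with 1 lower), 2 of 8 for macrophages, 1 of 6 for endothelium and 0 of 3 for blood. Summed levels in the high and low loin weight pigs were 1886 to 4939 against 741 to 1610 CPM for fibroblasts, 252 to 399 against 194 to 235 CPM for adipocytes and 151 to 217 against 50.6 to 127 CPM for macrophages. For endothelium they were 176 to 197 against 136 to 172 CPM, and for blood 82.4 to 239.6 against 45.4 to 175 CPM. Of the 7 skeletal muscle markers 1 was higher and 2 were lower, and their sum was 123917 to 209918 CPM against 83762 to 115839 CPM. No listed marker was at 0 in every pig. The part of fibre type and of these cells in the members' values was not tested.

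Gene length moved with the result as well. The span of the members on the chromosome had a median of 6.94 kb (0.483 to 36.7 kb), against 19.99 kb over all genes tested, and 67 of the 80 were shorter than that median. In Hampshire the log2 fold changes fell with span, with a Spearman's rho of -0.375 across all genes and -0.586 across the 80 members, which come from the same 6 libraries and are not independent. Among the 67 shorter members, 32 were higher, where 20% of all shorter genes were, and their median was 0.59 against 0.27 for all shorter genes. Among the 13 longer members, 2 were higher, where 5.05% of all longer genes were, and their median was 0.29 against -0.20. After the trend on span was removed in each pig, 11 members were higher (7.15% of all genes) and 2 lower (11.4%), with a median of 0.35 against 0.02. Of the 34 members called higher, 10 were called in both fits, among them ATP5I, COX6A2, NDUFS7, COX8A, COX4I1, COX6A1 and SDHB. The complex III median went to -0.01. Outside the members, 7 mitochondrially encoded genes were then lower in place of 3, and 2 of the 24 carriers and assembly factors were higher in place of 8. What the trend on span reflects was not tested.

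**Figure D3:**
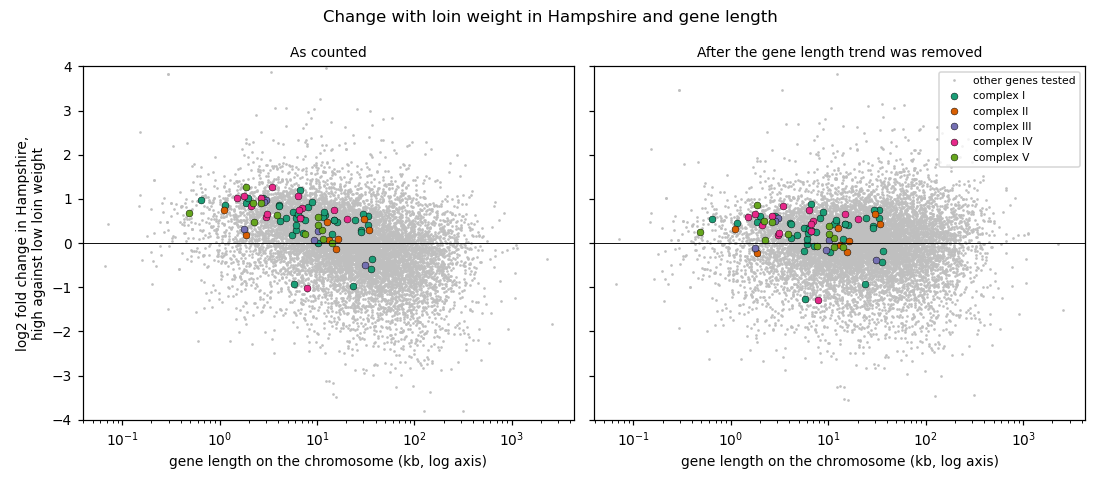
Log2 fold change in Hampshire, high against low loin weight (y axis), against the span of the gene on the chromosome (x axis, kb, log axis), for the members by complex and all other genes tested in grey (genes beyond the axis limits are not drawn). In the counted values (left) short genes lie higher, with Spearman's rho = -0.375 across all genes; after the trend was removed (right), 62 of the 80 members lie above 0.

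No member passed the test for loin weight in Pietrain. By edgeR none of 12065 genes was a DEG there (0%), so this result is not particular to the members. DESeq2 called no member either, but its share over all genes is not given here, so this count is not read as particular to the members. The paper reports DEGs between the Pietrain groups from DESeq2 at the same thresholds, and the cause of this disagreement was not tested. By edgeR 2 members, NDUFC1 and SDHAF3, had an unadjusted p under 0.05, where 3.3% of all genes did. Of the 80 log2 fold changes 24 were positive and 56 negative, with a median of -0.10 against 0.02 over all genes, and the smallest edgeR adjusted p was 0.939. The medians by complex lay between -0.13 and -0.08. In no member did the high loin weight pigs lie wholly above the low ones (2.08% of all genes), and in 3 (NDUFA2, NDUFB10 and NDUFAF5, named after their values were seen) they lay wholly below (2.51%). The SE of the 80 values ran from 0.16 to 0.59, so smaller changes may have been missed. COX6A2 showed this spread, with 138, 189, 82.0 and 275 CPM in the high and 171, 89.8 and 159 CPM in the low loin weight pigs. The high group covered the whole range of the low group, and the log2 fold change was 0.32 ± 0.38 (edgeR adjusted p = 0.939).

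The widest spread in Pietrain was between high loin weight pigs 1 and 6 and pigs 2 and 7 of the same group. Averaged over all members, their deviations were -0.33 and -0.55 log2 CPM in pigs 1 and 6 and -0.02 and -0.00 in pigs 2 and 7. The 6 slow fibre markers split the same 4 pigs, at -1.19 and -2.04 against 1.204 and 1.223. Low loin weight pig 5 did not share this relation, since its slow fibre markers had the lowest average deviation and its member average was -0.09. The largest negative value was that of SDHAF3, an assembly factor of complex II, which had 10.6, 6.92, 12.1 and 7.40 CPM in the high and 8.87, 19.9 and 19.4 CPM in the low loin weight pigs. Its groups overlapped (-0.76 ± 0.31, edgeR adjusted p = 0.939).

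The effect of loin weight differed between the breeds in 8 members. The difference (the Hampshire minus the Pietrain log2 fold change, 1 edgeR fit over the 13 pigs and 12831 genes) passed an adjusted p under 0.05 with a larger effect in Hampshire for 8 of 80, where 1.68% of all genes did, and with a smaller one for 0, where 4.22% of all genes did (5.9% in either direction). The median difference was 0.74 over the members and -0.02 over all genes, and 72 of the 80 were positive. By complex, 3 were in complex I (NDUFA2, NDUFB1 and NDUFB10, all accessory subunits), 4 in complex IV (COX6A1, COX6C, COX7B and NDUFA4) and 1 in complex V (ATP5I). The 3 assembly factors NDUFAF1, NDUFAF6 and NDUFAF7 were among the 8 negative differences, none of which passed.

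NDUFA2 (ENSSSCG00000014371; chromosome 2, 148302944 to 148304923), an accessory subunit of the matrix arm, had the smallest p. It stood at 79.5, 91.0 and 66.5 CPM in Hampshire high and 49.0, 35.0 and 31.8 CPM in Hampshire low loin weight pigs, and at 31.9, 35.6, 27.6 and 35.1 CPM in Pietrain high and 43.9, 45.4 and 37.2 CPM in Pietrain low loin weight pigs. The high pigs lay above the low pigs in Hampshire and below them in Pietrain, and the difference was 1.40 ± 0.27 log2 (edgeR adjusted p = 0.0101). COX6A1 (chromosome 14, 42876217 to 42878864) stood at 11.8, 9.51, 11.6 and 12.8 CPM in Pietrain high and 16.3, 13.1 and 11.1 CPM in Pietrain low loin weight pigs, which overlapped, and its difference was 1.27 ± 0.28 log2 (edgeR adjusted p = 0.0184). ATP5I stood at 64.0, 94.4, 47.7 and 85.7 CPM against 83.6, 62.5 and 93.8 CPM in Pietrain, again with overlap, and its difference was 1.42 ± 0.33 log2 (edgeR adjusted p = 0.0242).

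NDUFB10, a membrane arm subunit, stood at 222, 298 and 195 CPM in Hampshire high, 149, 135 and 116 CPM in Hampshire low, 112, 114, 95.5 and 117 CPM in Pietrain high and 118, 119 and 121 CPM in Pietrain low loin weight pigs. The last 3 groups lay close together, and the difference was 0.96 ± 0.24 log2 (edgeR adjusted p = 0.0350). In NDUFA2, COX6A1, ATP5I, NDUFB10 and COX6C the Hampshire high loin weight pigs all lay above every other pig. NDUFA4 stood at 404, 491, 398 and 425 CPM in Pietrain high and 448, 564 and 623 CPM in Pietrain low loin weight pigs. For NDUFA4, COX7B and NDUFB1 the Pietrain low loin weight pigs reached into the range of Hampshire high, and the differences were 1.15 ± 0.27, 1.11 ± 0.28 and 1.36 ± 0.36 (edgeR adjusted p = 0.0249, 0.0338 and 0.0398). The difference of COX6C was 1.01 ± 0.27 (edgeR adjusted p = 0.0437).

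The 8 calls depended on the pigs and on gene length. With the trend on span removed only NDUFA2 was called (0.99, edgeR adjusted p = 0.0339), where 0.491% of all genes were larger and 2.85% smaller in Hampshire. Leaving out 1 pig gave between 1 call (without Hampshire high 9, low 2 or low 3) and 13 calls (without Pietrain high 7). Without Pietrain low pig 5 there were 3 (NDUFA2, COX6A1 and ATP5I), without Pietrain high 1 or low 8 there were 2, without Hampshire high 8 there were 3 and without Pietrain high 2 there were 5. Over the fits that left out 1 pig, the median difference of the members ran from 0.55 to 0.82. The share of all genes called in those fits is not given.

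**Figure D4:**
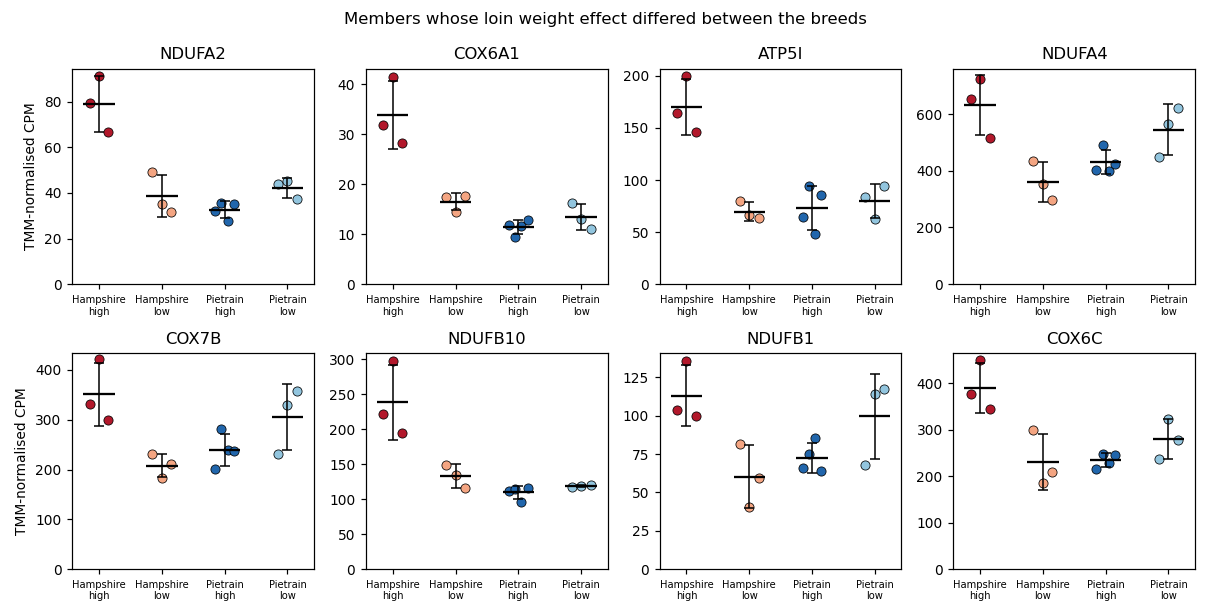
TMM-normalised CPM (y axis, from 0) by group (x axis) of the 8 members whose loin weight effect differed between the breeds. Each point is 1 pig, the thick line is the group mean and the bar its SD. In NDUFA2, COX6A1, ATP5I, NDUFB10 and COX6C the Hampshire pigs with high loin weight lie above all other pigs.

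Levels were next compared between the breeds at each loin weight. These contrasts use the same pigs as the comparisons above, so they are not separate evidence. Over the 4 groups, Hampshire high loin weight had the highest mean in 63 of the 80 members, Pietrain low in 16, Hampshire low in 1 and Pietrain high in 0. Of the 16, 8 were in complex I, 4 in complex II, 1 in complex III and 3 in complex V.

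At low loin weight 11 of the 80 members differed between the breeds, where 17.9% of all genes tested did. The low number is therefore not particular to the members. Higher in Hampshire were 5 (7.84% of all genes tested) and lower were 6 (10.1%), with a median log2 fold change of 0.07 against 0.00 over all genes. The higher ones were NDUFA10, NDUFS6 and NDUFV1 of complex I, the assembly factor NDUFAF3 and SDHA of complex II. The lower ones were the complex I accessory subunits NDUFA5, NDUFB3 and NDUFC1, the assembly factors SDHAF3 and COX7A2L, and the complex V factor ATP5S. NDUFA5, which lies where the matrix arm meets the membrane arm, had 99.9, 68.9 and 86.2 CPM in Hampshire low and 131, 204 and 195 CPM in Pietrain low loin weight pigs. The breeds did not overlap, and the log2 fold change was -1.05 ± 0.23 (edgeR adjusted p = 0.0146). ATP5S, a coupling factor of ATP synthase, had 26.1, 20.2 and 20.7 CPM against 34.2, 46.2 and 50.3 CPM, also without overlap (-0.96 ± 0.22, edgeR adjusted p = 0.0157). SDHAF3 (-1.38 ± 0.33, edgeR adjusted p = 0.0186) and NDUFC1 (-1.25 ± 0.32, edgeR adjusted p = 0.0217) had the largest negative values. Without Pietrain low pig 5 the value of NDUFC1 was -0.81. NDUFAF3 was higher by 0.99 ± 0.28 log2 (edgeR adjusted p = 0.0295), at 29.4, 20.1 and 17.1 CPM against 11.7, 12.7 and 9.14 CPM.

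In 21 members the Hampshire low loin weight pigs lay wholly above those of Pietrain (21.4% of all genes) and in 11 wholly below (21.4%). With the trend on span removed 4 members were higher (6.97% of all genes) and 10 lower (9.11%), with a median of -0.10. Macrophage markers were higher in Hampshire at low loin weight too, in 5 of 8 (median log2 fold change 1.93), with sums of 50.6 to 127 against 18.4 to 28.0 CPM. No adipocyte, endothelial, fibroblast, blood or slow fibre marker passed there (edgeR), and the part of these cells in the members' values was not tested.

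The 11 calls at low loin weight were all lost without Hampshire low pig 2, Pietrain low pig 5 or Pietrain low pig 8. Without Hampshire low pig 3, 1 was left, without Hampshire low pig 1 or any Hampshire high pig there were 7, and without Pietrain high pig 6 there were 18. The pigs of the other groups enter through the estimate of the spread. How many of all genes were called in these fits is not given, so the losses are not shown to be particular to the members.

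At high loin weight most members were higher in Hampshire. Of the 80, 51 were higher (22.6% of all genes tested) and 4 lower (24.2%), with a median log2 fold change of 0.74 against 0.02 over all genes. In 52 members the groups did not overlap with Hampshire above (24% of all genes) and in 4 with Hampshire below (24.6%). Called higher were 25 of 40 members in complex I, 4 of 8 in complex II, 3 of 6 in complex III, 11 of 14 in complex IV and 8 of 12 in complex V. COX6A1 had the smallest p, with 31.8, 41.5 and 28.3 CPM in Hampshire against 11.8, 9.51, 11.6 and 12.8 CPM in Pietrain. The breeds were far apart, and the log2 fold change was 1.57 ± 0.19 (edgeR adjusted p = 3.98e-05). NDUFA2 followed with 1.28 ± 0.18 (edgeR adjusted p = 0.000125), NDUFB10 with 1.12 ± 0.17 (edgeR adjusted p = 0.000163), NDUFAF3 with 1.59 ± 0.25 (edgeR adjusted p = 0.000265) and NDUFB11 with 1.28 ± 0.21 (edgeR adjusted p = 0.000275). The largest value was that of NDUFS7, which had 65.996, 114, 46.2 and 144 CPM in Pietrain high loin weight pigs. Every Hampshire high pig lay above these (1.79 ± 0.33, edgeR adjusted p = 0.000703).

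The 4 members lower in Hampshire at high loin weight were ATP5S and the complex I assembly factors NDUFAF1, NDUFAF6 and NDUFAF7. NDUFAF1 had 15.1, 15.7, 12.4 and 15.2 CPM in Pietrain high loin weight pigs against 7.63, 4.27 and 6.20 CPM in Hampshire. The breeds did not overlap, and the log2 fold change was -1.27 ± 0.24 (edgeR adjusted p = 0.000939). NDUFAF7 had -1.13 ± 0.25 (edgeR adjusted p = 0.00228), ATP5S -0.78 ± 0.20 (edgeR adjusted p = 0.0067) and NDUFAF6 -0.60 ± 0.22 (edgeR adjusted p = 0.0381). Among the 11 assembly factors of all complexes 3 were higher and 3 lower, whereas among the 66 subunits 47 were higher and none was lower. UQCRFS1, ATP5B and NDUFS1 were again not called, at 0.09 ± 0.20, 0.15 ± 0.20 and -0.42 ± 0.18 (edgeR adjusted p = 0.749, 0.551 and 0.0746).

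With the trend on span removed, 36 members were higher (18.2% of all genes) and 6 lower (22.9%) at high loin weight (41% in either direction), with a median of 0.48. Leaving out 1 pig gave 43 to 54 calls in either direction, and the share of all genes in those fits is not given. Of the macrophage markers 8 of 8 were higher in Hampshire at high loin weight (median log2 fold change 2.00), summing to between 151 and 217 CPM against 19.8 to 58.5 CPM. Of 5 adipocyte markers 2 were higher, of 6 endothelial markers 3 and of 7 fibroblast markers 3. Of 6 slow fibre markers none passed (edgeR), although 5 were positive and their median log2 fold change was 1.42. The part of these cells in the members' values was not tested.

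**Figure D5:**
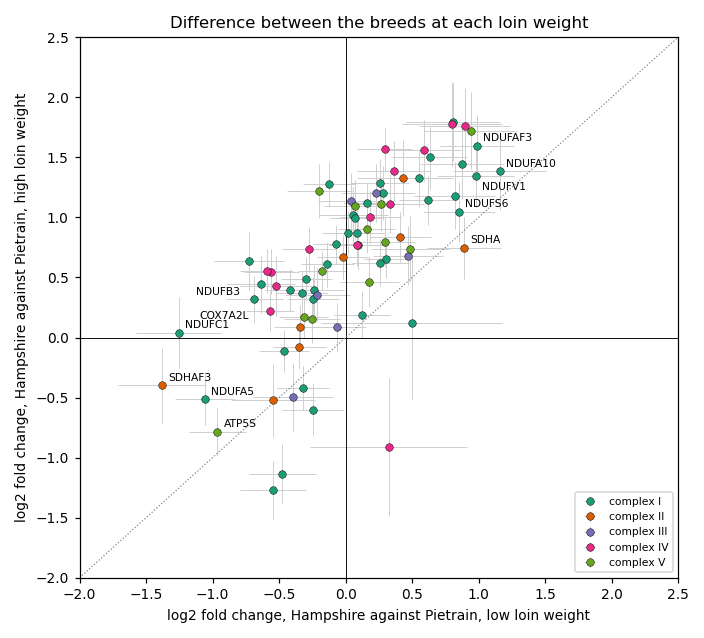
Log2 fold change of each member between Hampshire and Pietrain at low (x axis) and at high loin weight (y axis), coloured by complex; bars are SE, the dotted line marks equal values, and the 11 members called at low loin weight are named. Most points lie above the dotted line, with a median of 0.07 at low and 0.74 at high loin weight.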

How the data were processed

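RNA of longissimus lumborum from 13 pigs was sequenced with the TruSeq RNA Kit v2, which does not mark strand, so reads of overlapping or antisense genes cannot be told apart. The authors deposited raw counts per Ensembl gene, 1 table per breed, and the submitters' processing notes name FastQC, STAR, RSEM, DESeq2 and the build Sscrofa10.2. The deposited tables of the authors' own comparisons hold fold changes, statistics and p-values, which were not used; only symbols and gene coordinates were taken from them.

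Members were matched by symbol, from those tables or from the RefSeq Sscrofa11.1 gene table, of which no coordinates are printed; 79 of 80 had Sscrofa10.2 coordinates. No sequences were used here. 1 member enters the counts and medians but is not reported here by name. Members, lists and the genes named were chosen with earlier results of these data known. Named with values were, per complex, the 2 members with the smallest adjusted p in Hampshire; the central catalytic subunits; tissue isoform pairs; members called against the direction of most in their complex; those called in the difference; and the 5 with the smallest adjusted p in each breed contrast. Of other lists, up to 3 called genes were named, by adjusted p. Only genes found by symbol entered these lists. Further members are named where a count of them is small.

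Counts were filtered with filterByExpr, normalized by TMM and tested with edgeR 4.0.16 (quasi-likelihood F test, R 4.3.3) within each breed. The difference between breeds and the breed contrasts came from 1 fit over all 13 pigs with a mean per group. P-values were adjusted by the Benjamini-Hochberg method over all genes tested. Calls needed an adjusted p under 0.05 and at least a 1.2-fold change; for the difference the adjusted p alone was used. The SE was derived from the F statistic. Replicates are separate pigs. The scripts were tested on simulated data. Depth was 11312755 to 20134612 counts per pig.

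Alternatives were DESeq2 1.42.0, its size factors in edgeR, no filter, no threshold on the fold, a minimum of 10 counts in each pig, a joint fit of both breeds, leaving out each pig, and removal of the gene length trend (a lowess curve of each pig's log2 CPM deviation on log gene span).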

Additional observations from a re-analysis of the deposited data

Results flagged for a closer look

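The loin weight effect was larger in Hampshire than in Pietrain, by the edgeR test of the difference itself over the 13 pigs, in 8 members. The differences were 1.40 for NDUFA2, 1.27 for COX6A1, 1.42 for ATP5I, 1.15 for NDUFA4, 1.11 for COX7B, 0.96 for NDUFB10, 1.36 for NDUFB1 and 1.01 for COX6C, all on the log2 scale. In all 8 the Hampshire value was positive, and in all 8 the Pietrain value was negative. The 8 were picked by this difference, so these signs are not separate evidence, and no Pietrain value passed the test.

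In 2 members 1 pig was marked as lying apart from the others of its group. NDUFAF1 was lowest in Pietrain high loin weight pig 6 at 12.4 CPM, against 15.1 to 15.7 CPM in the other 3 pigs. NDUFB3 was highest in Pietrain high loin weight pig 2 at 139.4 CPM, against 109.6 to 110.4 CPM in the other 3. Chance marks about 1 in 20 groups in this way, and only the Pietrain high loin weight group had enough pigs to be examined. Many members were examined, so these 2 are not read as a result.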

How the results depend on the processing

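In Hampshire the number of members called (36) was 31 to 45 with DESeq2, its size factors, other filters, no fold threshold or 1 fit over all pigs, and 13 with the gene length trend removed; leaving out 1 pig gave 7 to 42. In Pietrain it was 0 under every alternative run. The difference between breeds (8 members) gave 21 with DESeq2, 5 without a filter, 12 with at least 10 counts in every pig, 1 with the length trend removed and 1 to 13 without 1 pig. Hampshire against Pietrain at low loin weight (11) gave 18 with DESeq2 and 0 to 18 without 1 pig, and at high loin weight (55) 42 to 57 and, without 1 pig, 43 to 54. With the length trend removed, 18.5% of all genes were called in Hampshire and 3.34% in the difference. For the other alternatives the share of all genes is not given. A change in these counts is therefore not shown to be particular to the members. Of the named members, 5 of 24 called in Hampshire, 1 of 8 in the difference, 0 of 8 at low and 22 of 31 at high loin weight kept their call in every alternative. With the length trend removed, uncalled Hampshire values turned negative for ATP5A1 (-0.078), ATP5B (-0.064), ATP5S (-0.091), SDHAF3 (-0.22) and UQCRFS1 (-0.15), as did the called value of NDUFB1 at high loin weight between the breeds (-0.038). Leaving out 1 pig gave -0.059 to 0.16 for ATP5A1, -0.15 to 0.11 for ATP5S, -0.0078 to 0.12 for SDHA and -0.022 to 0.15 for UQCRFS1 in Hampshire, and -0.27 to 0.074 for ATP5I in Pietrain. The causes were not tested. No paired analysis was possible because the groups compared hold different animals, and the pig numbers do not mark pairs. Depth limits NDUFA4L2 and NDUFA6 most, with medians of 58 and 66 counts per pig.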
